A study of Bos taurus with 2 samples.

Results

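In whole-genome bisulfite sequencing (WGBS) of cattle bone, the genome-wide level of CpG methylation was lower in the sample labelled Bone_2 than in the sample labelled Bone_1, and the windows described here ran the other way. The genome was divided into windows of 1000 bp, and a window was eligible when it lay on chromosomes 1 to 29, held at least 3 CpG sites and had at least 50 calls in each sample. Members were selected on the difference itself, as the windows whose weighted methylation was at least 20 percentage points higher in Bone_2 than in Bone_1. This gave 3224 of 1629759 eligible windows, or 0.198%, whereas 36.2% of eligible windows were at least 20 points lower in Bone_2. Weighted methylation is the number of methylated calls divided by all calls over a window, where a call is the state of 1 CpG cytosine in 1 read pair. Both samples were labelled as bone of female Holstein cattle, with no age and no treatment given, and each was 1 library. The sources used here do not state whether they came from 1 animal or from 2. There is thus 1 group of 2 samples, so a difference between them has no replicate check, and a test on their calls compares these libraries only. On chromosomes 1 to 29 the counts held 445684877 calls for Bone_1 and 389385549 for Bone_2, at an overall level of 72.4% and 59.0%.

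In mammals, methyl groups are carried mostly by the cytosine of CpG dinucleotides, on both strands of the DNA. Most CpG sites are methylated, whereas CpG islands, which are dense in CpG sites and often hold gene starts, are mostly unmethylated, and enhancers used by a cell often have intermediate or low levels. The maintenance enzyme DNMT1 copies the marks after replication with the help of UHRF1, and the TET enzymes start their removal. Bone tissue holds osteoblasts, osteocytes and osteoclasts beside marrow, blood and vessel cells, and its level at a site is an average over all of them. A different mixture of cells and a different level within a cell type therefore cannot be told apart in these counts. The counts hold no transcript levels, so the tissue label was not checked against marker genes.

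The members had low to intermediate levels in Bone_1 and intermediate levels in Bone_2. The lowest, median and highest level over the 3224 members were 0%, 27.8% and 74.1% in Bone_1, against 21.7%, 54.0% and 95.2% in Bone_2. Over all eligible windows the medians were 80.1% and 61.5%, so that members were far below the typical window in Bone_1 and somewhat below it in Bone_2. The difference that chose the members had a median of 24.1 points, with quartiles of 21.7 and 28.3 points and a highest value of 70.99 points, and the median over all eligible windows was -16.9 points. At least 30 points were reached by 603 members, 40 points by 72 and 50 points by 20. A level under 10% in Bone_1 was seen in 393 members, a level of 10% to under 40% in 2144 and a higher level in 687. Only 15 members went from under 20% in Bone_1 to over 60% in Bone_2. At the threshold, 504 members lay between 20 and 21 points, with median levels of 30.3% and 50.8%, and 544 windows lay just outside it between 19 and 20 points, with medians of 32.7% and 52.1%. By chromosome, members made up from 0.127% to 0.241% of the eligible windows.

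**Figure D1:**
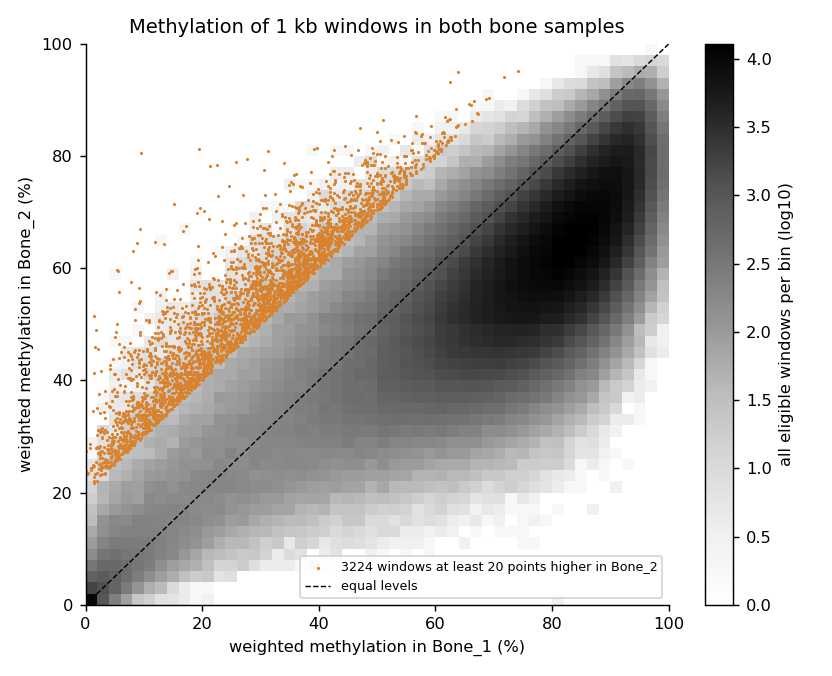
Weighted methylation of 1 kb windows in Bone_1 (x axis, %) against Bone_2 (y axis, %). Grey bins show the number of all eligible windows on a log10 scale, orange points are the 3224 windows at least 20 points higher in Bone_2, and the dashed line marks equal levels. Most eligible windows lie below the dashed line, and the members all lie at least 20 points above it, as the selection requires, with a median of 27.8% and an upper quartile of 37.8% in Bone_1.

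Members made up larger shares of the windows at both ends of the range of CpG density. They made up 0.382% of the windows with 3 to 5 CpG sites, 0.174% of those with 6 to 9, 0.136% of those with 10 to 19, 0.270% of those with 20 to 39, 0.417% of those with 40 to 59 and 0.386% of those with 60 or more. Windows are not replicates, so these shares are a description. The median number of CpG sites was 10 both in members and in all eligible windows. Low-density and high-density members differed in level. With 3 to 5 CpG sites the members had medians of 31.5% in Bone_1 and 58.8% in Bone_2, and with 60 or more sites the medians were 12.0% and 39.7%. By depth, members made up 0.274% of windows with 50 to 99 calls in the shallower sample, 0.146% of those with 100 to 199, 0.175% of those with 200 to 399 and 0.242% of those with 400 or more. Intervals cover counting error only: several calls can come from a single read pair, and without molecular identifiers different read pairs can stem from the same molecule.

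The ratio of depth between the samples differed with CpG density. Pooled over the members, Bone_1 had 16.6 calls per CpG site and Bone_2 12.1, close to the pooled ratio over all eligible windows. The median over single members was 13.8 calls per site in Bone_1 and 16.2 in Bone_2, against 15.5 and 16.3 over all eligible windows. The values that follow are pooled. In windows with 40 or more CpG sites, Bone_1 had 22.2 calls per CpG site and Bone_2 6.96, whereas over all eligible windows the values were 19.2 and 14.1, and in windows with 3 to 9 CpG sites they were 17.7 and 19.4. In windows under 20% in both samples, which include the unmethylated CpG islands, Bone_1 had 18.3 calls per site and Bone_2 6.97. A neighbour of this kind stood next to 641 members (19.9%), against 3.22% of all eligible windows, and against 31.6% of the other windows with a level of 10% to under 40% in Bone_1. These 641 members held a median of 24 CpG sites, with median levels of 14.3% and 40.9%, and the other 2583 members a median of 8 sites, with median levels of 30.8% and 56.9%.

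A window's level depends on which of its CpG sites the calls fall on, so the difference was also taken at the same CpG sites. For each site with calls in both samples the difference between them was computed, and the mean over the sites of a window was weighted by the calls of both samples (Mantel-Haenszel weights). This measure uses the same calls as the rule and is given as a description. At the same CpG sites the median difference of the members was 10.96 points, with quartiles of 0.01 and 20.3 points, against -16.2 points over all eligible windows. It reached 20 points in 830 members (25.7%), was above 0 and under 20 points in 1589, and was 0 or less in 805 (24.97%). Of all eligible windows, 0.0674% reached 20 points at the same sites and 4.14% were higher in Bone_2 by any amount. Members next to a window under 20% in both samples had a median of -0.96 points at the same sites, and 371 of the 641 were at 0 or less. The other 2583 members had a median of 14.2 points, and 434 were at 0 or less.

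The share of members at least 20 points higher at the same CpG sites fell with CpG density. This measure uses the calls of the rule, so the fall is a description. Of the 620 members with 3 to 5 CpG sites, 238 (38.4%) were at least 20 points higher at the same sites. The share was 29.7% with 6 to 9 sites, 24.3% with 10 to 19, 13.0% with 20 to 39 and 9.57% with 40 or more. With 40 or more CpG sites the median difference at the same sites was -0.44 points, and 123 of 230 members were at 0 or less. The 830 members at 20 points or more at the same sites had median levels of 32.7% in Bone_1 and 62.0% in Bone_2 and a median of 8 CpG sites. Within 1000 bp of the edge of a protein-coding gene lay 5.54% of them, against 38.8% of the 805 members at 0 or less and 5.32% of all eligible windows.

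**Figure D2:**
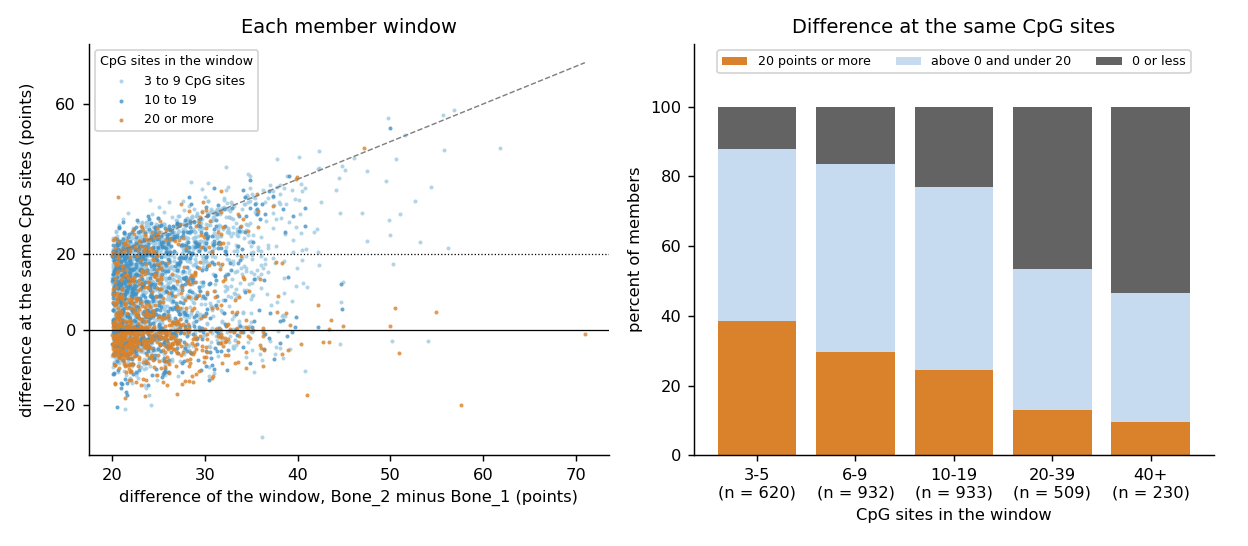
Left, the difference of each member window as selected (x axis, percentage points, Bone_2 minus Bone_1) against its difference at the same CpG sites (y axis, points), coloured by the number of CpG sites, with a dotted line at 20 points and a dashed line of equal values. Right, the percent of members in each CpG class that were at 20 points or more, above 0 and under 20, or at 0 or less at the same sites. The share at 20 points or more goes from 38.4% with 3 to 5 CpG sites to 9.57% with 40 or more.

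Among members with at least 100 calls in each sample and at least 5 CpG sites, the 10 with the largest difference were examined singly. Of these 10, 3 were at least 20 points higher at the same sites. Over all members, the share reaching 20 points at the same sites rose with the difference. At 20 to under 25 points it was 17.4% of 1817 members, and at 25 to under 30 points 29.9% of 804. At 30 to under 40 points it was 43.3% of 531, and at 40 points or more 61.1% of 72. Both measures use the same calls, so this rise is a description. The 72 members had a median of 6.5 CpG sites and were not limited to 100 calls or more, so they are not a like set. Under the limits that gave the 10 windows, 31 of the largest 100 reached 20 points at the same sites. Another 26 of the 100 were at 0 or less, as were 2 of the 10. The largest difference of all lay on chromosome 1, 154687001 to 154688000, in TBC1D5, which encodes a regulator of the Rab proteins of endosomes. Its level was 9.6% in Bone_1 (95% Wilson interval 8.1% to 11.3%, 1305 calls) and 80.6% in Bone_2 (74.7% to 85.3%, 211 calls), and at the same CpG sites the difference was -1.2 points. In the lower-coordinate part of this window, 61 CpG sites had a level of 0.254% from 1179 calls in Bone_1 and no methylated call among 33 in Bone_2. Most of these sites had no call in Bone_2, and 31 of the 72 CpG sites of the window had calls in both samples. If calls are independent, the 33 calls allow a level of up to 9.09% at the sites read. Bone_2 had at most 7 calls at any of these sites, and 1 read pair can give several calls, so the true limit may be higher. In the upper part, 11 CpG sites were at 96.8% from 126 calls in Bone_1 and at 95.5% from 178 calls in Bone_2. Over the sites read, neither part had a higher observed level in Bone_2, and the samples differed in the number of calls on each part. Calls were split in a similar way in the window on chromosome 26, 17481001 to 17482000, 141 bp from ZNF518A, a zinc finger gene. It was at 13.5% (9.6% to 18.6%, 223 calls) and 64.3% (59.4% to 69.0%, 387 calls), with -6.2 points at the same sites. Its lower part was at 96.3% from 27 calls and 84.0% from 288 calls, and its upper part at 2.04% from 196 calls and 7.07% from 99.

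Another 4 of these 10 windows differed by 5.8 points or less at the same sites. The window on chromosome 6, 76714001 to 76715000, 1311 bp from ADGRL3, which encodes a neuronal adhesion receptor, was at 8.1% and 63.0%, with 4.7 points at the same sites. The window on chromosome 29, 49549001 to 49550000, in MRPL23, which encodes a protein of the mitochondrial ribosome, was at 17.2% and 67.6%, with 5.8 points at the same sites. The window on chromosome 12, 65754001 to 65755000, 3 bp from GPC5, which encodes a cell surface proteoglycan, was at 1.5% and 51.4%, with 1.0 point at the same sites. The window on chromosome 22, 26205001 to 26206000, in CHL1, a neural cell adhesion gene, was at 14.6% and 59.5%, with 0.97 points. The windows of GPC5 and CHL1 each had 1 CpG site with at least 5 calls in both samples, so their same-site values rest on thinly called sites. The windows after those of ADGRL3, GPC5 and CHL1 were at 0.5%, 2.7% and 6.4% in Bone_1 and at 3.6%, 1.2% and 1.4% in Bone_2, and the window before that of MRPL23 was itself a member. The window on chromosome 18, 60736001 to 60737000, 4351 bp from the zinc finger gene ZNF331, was at 14.8% and 59.4%, with 12.2 points at the same sites.

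The remaining 3 windows kept a large difference at the same CpG sites. On chromosome 28, 25472001 to 25473000, 1775 bp from SRGN, which encodes serglycin, the proteoglycan of secretory granules in blood cells, the level was 24.7% in Bone_1 (18.6% to 32.0%, 158 calls) and 74.6% in Bone_2 (66.9% to 81.1%, 142 calls). At the same sites the difference was 53.6 points, and all 12 CpG sites called 5 times or more in both samples were higher in Bone_2. On chromosome 14, 7938001 to 7939000, in the sialyltransferase gene ST3GAL1, the level was 5.4% (3.0% to 9.4%, 204 calls) and 59.7% (51.7% to 67.3%, 149 calls), with 38.1 points at the same sites and all 4 such sites higher. On chromosome 5, 91433001 to 91434000, in the lipid kinase gene PIK3C2G, it was 19.6% (13.3% to 27.95%, 112 calls) and 70.7% (62.2% to 78.0%, 123 calls), with 30.7 points at the same sites and 4 of 6 such sites higher. The strands of these windows were read unequally, and in each the strand with few calls in Bone_1 was lower in Bone_2. At SRGN the bottom strand was at 80% from 10 calls in Bone_1 and 65.3% from 49 calls in Bone_2, and at PIK3C2G the top strand was at 85.7% from 7 calls and 75.5% from 53 calls. At ST3GAL1 the top strand was at 3.1% in Bone_1 and 66.3% in Bone_2, while the bottom strand was at 62.5% from 8 calls in Bone_1 and 51.5% from 66 calls in Bone_2.

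**Figure D3:**
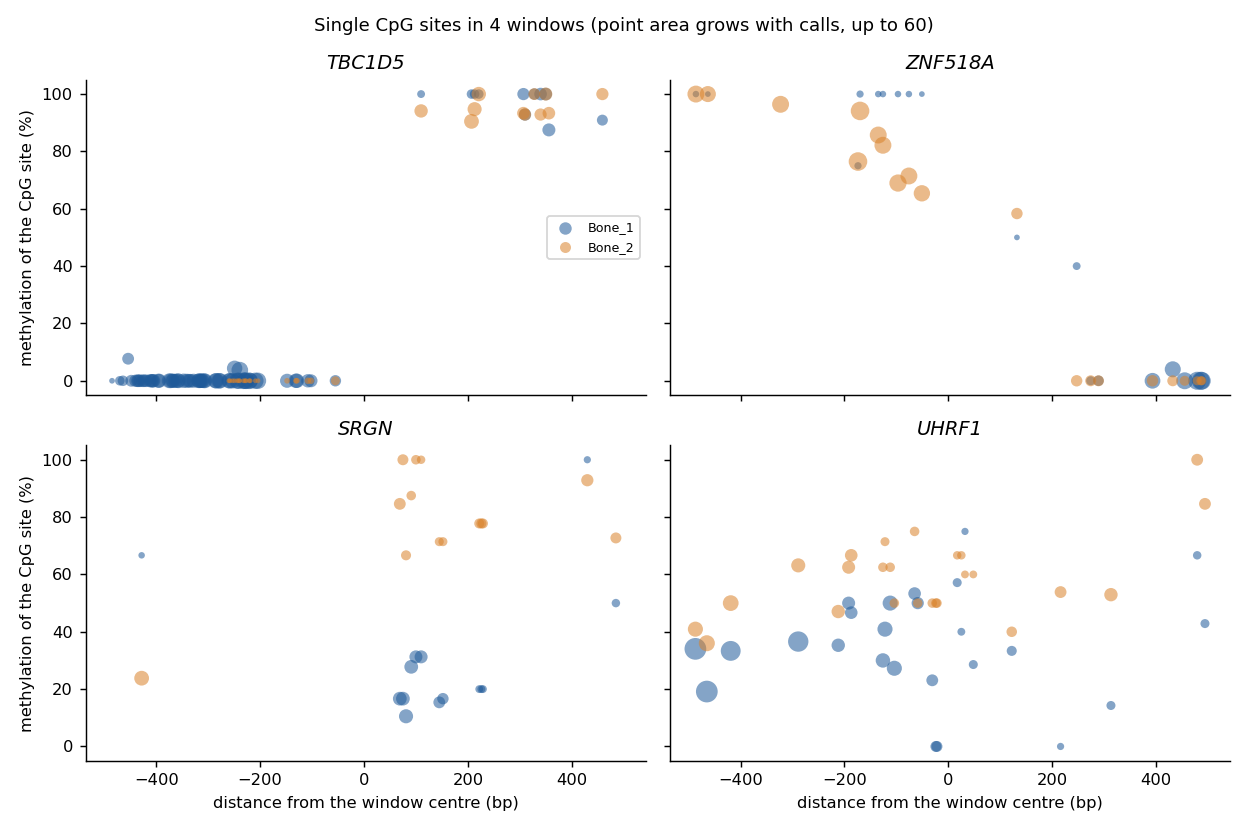
Methylation of single CpG sites (y axis, %) by distance from the window centre (x axis, bp) in 4 member windows, in or near TBC1D5, ZNF518A, SRGN and UHRF1, with Bone_1 in blue and Bone_2 in orange and a point area that grows with the calls at the site. At TBC1D5 the sites called in both samples lie at similar heights. At ZNF518A several sites with 2 to 5 calls in Bone_1 are higher there, such as the site 97 bp before the centre, at 100% from 3 calls in Bone_1 and 69.0% from 29 calls in Bone_2. In both windows the largest points of each sample lie on opposite sides of the centre, whereas at SRGN and UHRF1 most orange points lie above the blue ones.

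Members were also ranked by the difference at the same CpG sites, an order chosen after the values were seen. This order uses the calls of the rule and favours windows with many higher sites. The counts of higher sites below are therefore a description, and they are no check that the sites differ. Of 1704 members with at least 100 calls in each sample, 5 CpG sites and 5 sites with calls in both, 310 were at least 20 points higher at the same sites, 79 of them with 20 or more CpG sites. In KAT2B, which encodes a histone acetyltransferase, the window on chromosome 1, 157292001 to 157293000, was at 34.9% in Bone_1 (28.2% to 42.3%) and 74.8% in Bone_2 (69.2% to 79.7%). All 17 of its sites with 5 calls in each sample were higher in Bone_2, on the top strand from 47.9% to 69.2% and on the bottom strand from 19.2% to 77.8%. The window on chromosome 4, 117144001 to 117145000, 5439 bp from INSIG1, a regulator of sterol synthesis, was at 28.6% (24.4% to 33.3%) and 68.4% (61.8% to 74.3%), with 22 of 23 sites higher. In MTUS1, a microtubule-associated gene, the window on chromosome 27, 19600001 to 19601000, was at 12.2% (9.7% to 15.3%) and 43.9% (38.6% to 49.4%), with 20 of 22 sites higher. Its neighbours were lower in Bone_2, at 32.4% and 24.4% before it and at 67.6% and 55.3% after it. In KLF13, which encodes a Kruppel-like transcription factor, the window on chromosome 21, 27709001 to 27710000, held 66 CpG sites within 1000 bp of a gene edge. It was at 20.6% in Bone_1 from 1490 calls and 56.3% in Bone_2 from 311 calls, and all 28 sites with 5 calls in each sample were higher in Bone_2. Between MTUS1 and KLF13 in this order, among members with 20 or more CpG sites, stood 3 windows. The first, in DLAT, which encodes a subunit of the pyruvate dehydrogenase complex, lies on chromosome 15, 22369001 to 22370000, and was at 60.1% and 80.8%. Its difference over the same sites was 35.3 points, but neither of its 2 sites with 5 calls in each sample was higher in Bone_2, and its top strand went from 96.3% to 74.7%. In the other two, 21 of 25 and 20 of 21 such sites were higher. Among members with fewer CpG sites, the window on chromosome 9, 82847001 to 82848000, 73413 bp from EPM2A, was 38.8 points higher at the same sites with 3 of 5 such sites higher.

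Top-strand and bottom-strand calls stem from different read pairs, so windows can be chosen on 1 strand and read on the other. The rule for members used both strands, so the windows chosen here are not the same set as the members. Of the members, 1204 had 25 calls on each strand in each sample, against 809268 of all eligible windows. Higher in Bone_2 on both strands were 932 of these members and 18681 of these windows. At least 20 points higher on both were 287 and 299. These counts use the calls of the rule and are a description. Windows with at least 3 CpG sites and 25 calls per strand in each sample were chosen on the top strand alone, by a difference of at least 20 points, and then read on the bottom strand. The 5119 windows so chosen had a median difference of 25 points on the top strand and -9.59 points on the bottom strand, with quartiles of -20.6 and 3.38 points, whereas the 809268 windows read on both strands had a median of -16.7 points there. On the bottom strand 30.8% of the chosen windows were higher in Bone_2 by any amount, against 9.42% of all windows, and 299 (5.84%) were at least 20 points higher, against 0.614%. A Fisher's exact test on the bottom-strand calls, with Benjamini-Hochberg adjustment over all 809268 windows and a threshold of 0.05, called 12.9% of the chosen windows higher in Bone_2 and 1.6% of all windows. Thus the bottom strand was lower in Bone_2 for most windows chosen on the top strand.

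The reading of the second strand depended on CpG density. Windows chosen on the top strand had a bottom-strand median of -14.0 points with 3 to 5 CpG sites, -13.6 points with 6 to 9, -12.2 points with 10 to 19, -6.00 points with 20 to 39 and 1.92 points with 40 or more. Of those with 40 or more CpG sites, 57.5% were higher in Bone_2 and 35.8% were called by the exact test. The shares over all windows of that density on this measure are not given here, so no excess can be read from them. At the same CpG sites of the bottom strand, however, the 637 chosen windows with 40 or more CpG sites had a median of -3.94 points, and 26.8% were higher, against -5.64 points and 19.3% for all windows of that density. Over all densities the same-site median of the 5119 windows was -8.15 points, with 22.9% higher against 8.93% of all windows and 2.27% at least 20 points higher against 0.34%. With 3 to 9 CpG sites, 2.53% of the chosen windows were at least 20 points higher there, against 0.434% of all windows of that density. The shares were 2.35% against 0.319% with 10 to 19 sites and 2.03% against 0.306% with 20 to 39. With 40 or more sites they were 2.04% against 0.322%. The 2830 windows chosen by 20 points at the same sites of the top strand had a same-site median of -9.76 points on the bottom strand, and 3.25% were at least 20 points higher there.

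**Figure D4:**
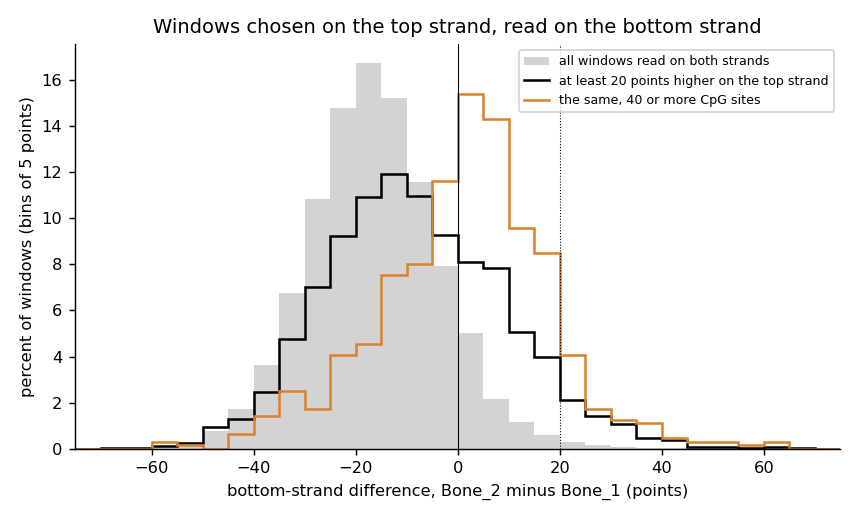
Distribution of the bottom-strand difference (x axis, percentage points, Bone_2 minus Bone_1, bins of 5 points) as percent of windows (y axis) for all 809268 windows read on both strands (grey), for the 5119 chosen on the top strand (black line) and for the 637 of these with 40 or more CpG sites (orange line). The medians are -16.7, -9.59 and 1.92 points.

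The calls that chose the members were also described by CpG site. Leaving out the CpG site that adds most must lower a difference. Without the CpG site that added most to its difference, 1348 of 3224 members (41.8%) were still at least 20 points higher in Bone_2, 2755 were still at least 10 points higher, and 231 were no longer higher. Of the members with 3 to 5 CpG sites 129 of 620 stayed at 20 points, and with 40 or more 155 of 230. Members held 29743 CpG sites called 5 times or more in both samples, of which 52.7% were higher in Bone_2, against 15.8% over all eligible windows. In 23.1% of these sites in members no methylated call was seen in Bone_1, and the share over all eligible windows is not given here. The rule favours low levels in Bone_1, so this share is a description. All sites called 5 times or more in both samples were higher in Bone_2 in 430 members, 163 of them with 3 to 5 CpG sites.

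The windows beside the members were lower in Bone_2 more often than not. Of 4749 eligible windows immediately next to a member, 80 were members themselves, and the other 4669 had differences under 20 points by the rule. Read pairs that cross a window border can give calls to both windows, so these neighbours are not independent of the members. Over these 4669 windows the median levels were 73.9% in Bone_1 and 59.2% in Bone_2, with a median difference of -10.6 points. Among them, 21.6% were higher in Bone_2 by any amount, against 5.3% of all eligible windows. The exact test, with Benjamini-Hochberg adjustment over all 1629759 windows and a threshold of 0.05, called 6.83% of them higher in Bone_2, against 1.19% of all windows. Against the genome-wide odds ratio of 1.83 between Bone_1 and Bone_2 in place of an odds ratio of 1, 19.4% were called, against 4.66% of all windows. Such a call means higher in Bone_2 than this ratio gives, so it can include windows that were lower in Bone_2. With the 80 members kept, the median difference was -10.3 points, 23.0% were higher, and 8.40% and 20.8% were called. At the same CpG sites 15.3% of the 4669 neighbours were higher in Bone_2, with a median of -10.4 points. The neighbours of other windows with a level of 10% to under 40% in Bone_1, members again left out, had close values, with a median difference of -11.3 points, 18.8% higher and 5.67% called. Neighbours of the 830 members with 20 points at the same sites had a median difference of -11.2 points, and 6.17% were called.

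The difference lay closer to that of all eligible windows, a median of -16.9 points, with distance from the members. With members left out, the median difference was -13.9 points at 2 kb from members, -15.2 at 5 kb, -15.3 at 10 kb and -15.6 at 20 kb, and 12.5%, 9.40%, 8.15% and 7.23% of the windows at these distances were higher in Bone_2. Over the windows within 50 kb, leaving out the member and its neighbours, the median of this regional difference was -15.9 points around members, -16.5 around the other windows at 10% to under 40% in Bone_1 and -17.1 around every 20th eligible window. It was above 0 for none of the 3224 members, for 3 of 35980 and for 1 of 81488, so that this count does not set members apart. In Bone_1 the median level went from 82.4% at 20 kb to 27.8% in the member, and in Bone_2 from 64.1% to 54.0%. The levels in the members are the values the selection used and are given as a description.

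**Figure D5:**
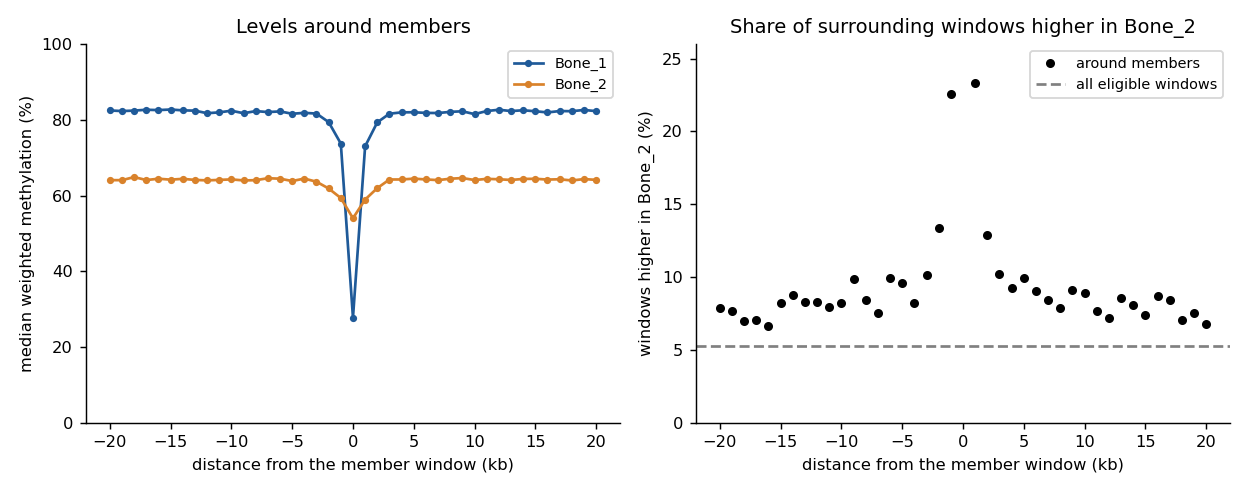
Left, median weighted methylation (y axis, %) of Bone_1 (blue) and Bone_2 (orange) by distance from the member window (x axis, kb). Right, percent of the surrounding eligible windows that were higher in Bone_2 (y axis) by distance (x axis, kb), with the dashed line at the 5.3% of all eligible windows. The point at distance 0 in the left panel is the selected window itself, at 27.8% in Bone_1 and 54.0% in Bone_2. Other members among the surrounding windows are included, and the share of higher windows is 23.0% over both adjacent windows and 7.35% at 20 kb.

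Members rarely stood together. Another member was adjacent to 79 of the 3224 (2.45%), against 0.291% of all eligible windows and 1.01% of the other windows at 10% to under 40% in Bone_1, and 3116 stood alone when runs could hold 1 other window between members. There were 51 runs of 2 members and 2 runs of 3. One run of 3 lay on chromosome 27, 7709001 to 7713000, in and beside SPATA4, a gene named for spermatogenesis. Its members were at 35.5% and 71.1%, at 24.5% and 49.1%, and at 36.6% and 59.5% in Bone_1 and Bone_2, with 30.7, 14.2 and 16.98 points at the same sites. The other lay on chromosome 6, 25978001 to 25981000, in the tetraspanin gene TSPAN5. Its members were at 38.3% and 59.6%, at 31.7% and 59.4%, and at 14.6% and 41.3%, with -0.4, -3.2 and 16.9 points at the same sites. In ANKDD1B on chromosome 10, a member at 7013001 to 7014000 with 58 CpG sites was at 48.2% (44.6% to 51.8%, 747 calls) and 78.8% (75.2% to 81.9%, 570 calls), and 44 of its 55 sites with 5 calls in each sample were higher in Bone_2. After 1 other window, the member at 7015001 to 7016000 was at 21.4% (14.0% to 31.3%, 84 calls) and 78.3% (70.4% to 84.5%, 129 calls), with all 7 sites higher. These ANKDD1B windows had 28.8 and 58.3 points at the same sites. The run in MRPL23 had -0.5 and 5.8 points at the same sites, and the run in the forkhead gene FOXP1 20.99 and 14.0 points.

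Members lay near gene edges more often than eligible windows at large, and less often than other windows with 10% to under 40% in Bone_1. Within 1000 bp of an edge of a protein-coding gene lay 566 members (17.6%), against 5.32% of all eligible windows. In that Bone_1 range the share was 15.6% of the 2144 members and 24.1% of the other windows. These other windows had medians of 17 CpG sites and 26.4% in Bone_2, against 10 sites and 51.9% in the 2144 members. The gene table gave no strand, so an edge can be the start or the end of a gene. Gene bodies held 55.7% of members and 48.0% of eligible windows. Of 20280 protein-coding genes, 2164 (10.7%) had a member in the body or within 5000 bp, 639 (3.15%) had one at an edge, and 463 (2.28%) had one that was at least 20 points higher at the same sites.

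The 15 genes with the largest difference at an edge were TBC1D5, ZNF518A, MRPL23, GPC5, HNRNPA3, MKRN2, AVL9, TMEM134, POLR1H, PRKAR1A, KRT10, PYGB, TTC28, CHEK2 and MARCHF7, of which TTC28 and CHEK2 shared 1 window. The difference at the same sites was under 10 points for 14 of these 15 genes and 0 or less for 8. Some of these values rest on thinly called sites. Only 1 CpG site had at least 5 calls in both samples at GPC5 and at KRT10, and 2 did at PRKAR1A. On chromosome 19, 61719001 to 61720000, 90 bp from PRKAR1A, which encodes a regulatory subunit of protein kinase A, the window was at 4.7% and 43.9%, with 1.3 points at the same sites. The window in TTC28 that also lies near an edge of the checkpoint kinase gene CHEK2, on chromosome 17, 67973001 to 67974000, was at 16.2% and 54.5%, with -6.5 points. The exception was POLR1H, which encodes a subunit of RNA polymerase I. The window within 1000 bp of its edge, on chromosome 23, 28921001 to 28922000, lay in LOC101907137 and not in the body of POLR1H. It was at 6.5% from 398 calls and 46.0% from 113 calls, with 30.3 points at the same sites and 9 of 10 sites higher. At gene edges 26 windows with 100 calls, 5 CpG sites and 5 shared sites were at least 20 points higher at the same sites. Among them, in an order chosen after the values were seen, were windows at AMDHD2 and ATP6V0C, a proton pump subunit gene, at 5.3% and 32.6% with 51 of 52 sites higher, 411 bp from TFB1M, a nuclear gene whose product acts in mitochondria, at 10.98% and 44.8% with 21 of 28 sites higher, and at GPR84, a fatty acid receptor gene of myeloid cells, at 13.8% and 36.7% with all 10 sites higher.

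Over all genes there were 2.59 members per 1000 eligible windows. By the number of members, NAALADL2 and PCDH15, a protocadherin gene, had 5 members each, out of 590 and 394 eligible windows. PIK3C2G, ANKRD33B, FOXP1, TTC28, VPS35L, the histone acetyltransferase gene KAT6A and ARHGAP15 had 4 each, out of 102 eligible windows in ANKRD33B to 507 in FOXP1. At the same sites, 20 points were reached by 4 of the 5 members in NAALADL2, 3 of 5 in PCDH15, all 4 in VPS35L, 3 of 4 in ARHGAP15, 2 of 4 in ANKRD33B and 1 of 4 each in PIK3C2G, FOXP1, TTC28 and KAT6A, and by none of the 3 in TBC1D5. The median difference over all windows of these genes lay between -17.3 and -11.4 points, so that the members stood in genes that were lower in Bone_2 overall.

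Genes of bone and marrow cells were examined in lists. Of 421 genes matched from 16 lists, 41 (9.74%) had a member in the body or within 5000 bp, close to the 10.7% of all genes with one. In the list of osteoblasts and bone matrix 1 of 19 genes had a member, RUNX2, a transcription factor that osteoblasts require, with 27.5% and 49.3% and -0.9 points at the same sites. Of the osteocyte genes 1 of 8 had one, the phosphate hormone FGF23, with 14.3% and 36.2% and -11.4 points. None of 14 cartilage genes and none of 20 lymphoid genes had a member. Of 14 osteoclast genes 2 had one, OCSTAMP, which takes part in osteoclast fusion, with 25.6% and 55.8% and 23.0 points at the same sites, and the matrix protease MMP9, with 4.4% and 25.4% and 0.8 points. Of 29 genes of blood stem and myeloid cells 3 had one, of which the transcription factor gene RUNX1 held 3 members, and at the same sites the largest member of RUNX1 had 2.6 points, that of the actin-bundling gene LCP1 14.9 points and that of PTPRC, which encodes the leukocyte antigen CD45, 10.7 points. Among the red cell genes, the membrane skeleton gene EPB42 had one with 11.6 points at the same sites, and the Rh-associated glycoprotein gene RHAG had one with -1.9 points. Of 10 fat cell genes the lipid droplet gene PLIN1 had one, with 17.3 points, and of 15 fibroblast genes the matrix gene TNXB had one, with 14.8 points. The PLIN1 window lay outside the body of PLIN1 and in another gene. It held 3 CpG sites, and without the site that added most its difference was -9.5 points. Of 12 muscle genes the actin gene ACTA1 and the creatine kinase gene CKM had one, with 0.3 and -14.1 points.

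Endothelial genes had a member in 6 of 15, with 6.31 members per 1000 eligible windows against 2.59 over all genes, a count of 7 windows. ERG, an ETS transcription factor of endothelial cells, had 2 members, both at least 20 points higher at the same sites. The larger, on chromosome 1, 150783001 to 150784000, was at 31.6% (24.7% to 39.3%, 152 calls) and 66.0% (56.1% to 74.6%, 97 calls), and 8 of 10 sites were higher in Bone_2. EMCN, which encodes the vessel sialomucin endomucin, had a member at an edge on chromosome 6, 24210001 to 24211000, at 11.1% (7.5% to 15.9%, 217 calls) and 40.5% (35.0% to 46.2%, 294 calls), with 29.5 points at the same sites. The receptor genes TEK and KDR had 1 each, with 10.6 and 0.4 points at the same sites. The median difference over all windows of ERG and EMCN was -18.0 and -20.2 points.

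Among genes that write, read or erase DNA methylation, 6 of 16 had a member, with 9.45 members per 1000 windows, again a count of 7 windows. The demethylase genes TET3 and TET2 had 2 and 1, and the maintenance methyltransferase gene DNMT1 had 1, with -1.1 points for the larger of TET3, -10.97 points for TET2 and -7.6 points for DNMT1 at the same sites. The DNMT1 window lay outside the body of DNMT1 and in another gene. For UHRF1 the same-site value was higher. Its window on chromosome 7, 19250001 to 19251000, with 25 CpG sites, was at 34.1% in Bone_1 (29.8% to 38.7%, 428 calls) and 56.9% in Bone_2 (51.2% to 62.4%, 297 calls), with 21.2 points at the same sites and 22 of 23 sites higher in Bone_2. Its top strand went from 35.7% to 61.9% and its bottom strand from 26.7% to 43.0%. The neighbouring windows were at 65.9% and 69.5% before it and at 56.4% and 51.4% after it.

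Genes of positional identity had members in 6 of 60, all of them transcription factor genes of the HOX, SHOX and MEIS families. In HOXC9 a window on chromosome 5, 26030001 to 26031000, was at 18.3% (15.6% to 21.5%, 654 calls) and 42.3% (36.0% to 48.8%, 227 calls), with 20.98 points at the same sites and 20 of 22 sites higher. Bone_1 had no call on the top strand of this window. On its bottom strand the level was 18.3% from 654 calls in Bone_1 and 40.6% from 165 calls in Bone_2. HOXA5, HOXA6 and HOXA7 shared 1 window on chromosome 4, 68892001 to 68893000, at 6.0% and 29.5%, with 11.3 points at the same sites. In this list the median of the gene medians was -4.02 points, nearer to 0 than over all eligible windows. Of 125 other developmental transcription factor genes 6 had one, led by LHX2 with 2. At the same sites the largest member of LHX2 had -5.7 points, and those of GATA3, ZIC4 and OTX1 had 10.2, 19.5 and 5.7 points. Of 27 imprinted genes, which are expressed from a single parental allele, 1 had a member. This was GRB10, an adaptor of insulin receptor signalling, in the window on chromosome 4, 5129001 to 5130000. It was at 62.6% (55.3% to 69.3%, 179 calls) and 93.2% (83.8% to 97.3%, 59 calls), with 28.99 points at the same sites and all 5 sites higher in Bone_2. Of 20 germ cell genes 2 had one, TEX15 and PIWIL1, with -5.2 and -0.4 points.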

How the data were processed

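WGBS calls of 2 bone samples were taken as deposited. The authors trimmed the reads with Trim Galore, aligned them with Bismark and Bowtie2, removed duplicates and deposited counts of methylated and unmethylated calls per CpG cytosine and strand. The submitters' processing notes name Trim Galore 0.4.5, Bismark 0.19.0, FastQC 0.11.5 and the build ARS-UCD1.2, whereas the study's methods name other versions and the build UMD3.1.1; the counts name none. Bone_1 had 582241763 calls over all sequences and Bone_2 440334436.

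Strands were merged into CpG sites, and calls were summed over windows. Windows, strands and neighbours were compared by two-sided Fisher's exact tests with Benjamini-Hochberg adjustment, at 0.05 and, as an alternative, 0.01. Levels carry 95% Wilson intervals, and a count of 0 was taken to allow 3 calls. The members and gene lists were chosen with earlier results of these data known, and the comparison at the same CpG sites was added after the data were seen.

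Gene names came from a RefSeq table of ARS-UCD2.0 without strand, so promoters were replaced by gene edges. Its positions were checked against the counts: in 348 of 348 segments of 5 Mb, CpG sites within 100 bp of gene edges were most frequent with no shift, and in 49.8% of 2159 tRNA genes the CpG of the conserved B box was at the exact offset, against at most 4.21% at offsets of 1 to 5 bp. Window coordinates are those of the counts, none of the gene table's coordinates are given, and no genome sequence was used here.

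Named were the 10 members with the largest difference among those with at least 100 calls in each sample and 5 CpG sites (1 per run), the 5 longest runs, the 15 genes with the largest difference at an edge and the 10 with most members (symbols starting with LOC left out), and the 4 genes with most members per list. Of 435 listed symbols 421 matched. A result on 1 listed gene is not reported here. The exact test and the same-site difference were tested on simulated data. Tests ran in Python 3.11.15 with numba 0.67.0, tables were handled with pandas 2.3.3, numpy 2.4.6 and pyarrow 21.0.0, intervals came from scipy 1.17.1, and plots from matplotlib 3.10.9.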

Additional observations from a re-analysis of the deposited data

How the results depend on the processing

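Of 35 alternative values for 7 results, 25 moved beyond the limits set for them and 10 did not, and no difference changed its sign. The number of members, 3224, became 5961 with at least 20 calls in each sample, 1722 with 100 calls, 7363 at 15 points and 603 at 30 points. It was 7794 from the top strand alone and 7602 from the bottom strand alone, where fewer calls were required. An unweighted mean over the CpG sites gave 1414 windows, 769 of them members, and the difference at the same CpG sites gave 1098, 830 of them members. Without the CpG site that added most, 1348 of the members stayed. With 5 CpG sites, windows shifted by 500 bp or the deepest 0.1% of CpG sites left out, the number stayed between 2894 and 3248. The median difference in windows next to members, -10.3 points with members among them kept, was -6.95 with 100 calls, and -13.8, -15.2, -15.3 and -15.6 at 2, 5, 10 and 20 kb. The median on the strand not used was -8.85 points when windows were chosen on the bottom strand and -6.08 with 50 calls per strand. The median number of CpG sites in members, 10, was 16 with 100 calls, 8 at 30 points and 11 with at least 5 CpG sites. The share of members near a gene edge, 17.6%, was 9.55% within 300 bp, 15.1% at 30 points, 26.7% with 100 calls (6.58% of all windows) and 21.7% without the CpG site that added most. Of the windows next to members, 20.8% were called against the genome-wide odds ratio, which can include windows lower in Bone_2. At 0.01, 6.02% were called higher in Bone_2 (0.805% of all windows). Where the cause is not in the alternative's own construction, it was not tested. Leaving out a sample gives no difference from the 1 sample left. No paired analysis was possible because there is a single group. Depth limits the windows of 40 or more CpG sites and those under 20% in both samples, where Bone_2 had 6.96 and 6.97 calls per site.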

Other observations

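The X chromosome, which was left out of the selection, held few windows of this kind. Of 69234 windows on X with at least 3 CpG sites and 50 calls in each sample, 37 (0.0534%) were at least 20 points higher in Bone_2, and 36.5% were at least 20 points lower. The 37 windows had median levels of 25.9% in Bone_1 and 50.8% in Bone_2, and 3 of them held 40 or more CpG sites. Genes of other kinds held members at about the share of all eligible windows. Long non-coding RNA genes held 5.96% of members and 5.49% of all eligible windows, pseudogenes 0.744% and 0.935%, and tRNA genes 0.0931% and 0.105%. Of the other windows with 10% to under 40% in Bone_1, tRNA genes held 0.414%. The share of members in tRNA genes rests on very few windows. The last 2 Mb of the chromosomes held 2.79% of members and 3.07% of eligible windows.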
